A study of Mus musculus with 6 samples.

Results

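The genes described here are 10 that build or regulate the polarity complexes of epithelial cells. They are Pard3, Pard6b and Prkci of the Par complex, Crb3 of the Crumbs complex, Scrib, Dlg1, Llgl1 and Llgl2 of the Scribble module, and the kinases Stk11 and Mark2. They were chosen by gene symbol, and each symbol matched 1 of the 43346 Ensembl gene IDs in the counts. RNA-seq counts came from livers of C57BL6 mice aged 3 months, with 3 libraries of a hepatocyte-specific double knockout (DKO) and 3 Control libraries. The DKO was made to remove 2 junction proteins from hepatocytes. They are β-catenin (Ctnnb1), which links cadherins to the cell cortex and transmits Wnt signals, and γ-catenin (Jup, plakoglobin), a related protein of adherens junctions and desmosomes. A deletion limited to hepatocytes would leave both genes in other liver cells, which was not tested here. The sources used here do not give the alleles, the driver of the deletion or the exact genotype of the Control mice. Hepatocyte polarity is named in the series title, and the comparison asks how transcripts of the polarity machinery differ between DKO and Control livers.

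Epithelial polarity rests on protein complexes that exclude each other. The Par complex (Par3, Par6 and atypical protein kinase C) and the Crumbs complex mark the apical side, and the Scribble module (Scribble, Dlg and Lgl) marks the basolateral side. Atypical protein kinase C phosphorylates Lgl and keeps it off the apical membrane, and the Par1 kinases, of which Mark2 is one, phosphorylate Par3 and keep it off the basolateral membrane. LKB1, the product of Stk11, activates the MARK kinases and AMPK. Hepatocytes are unusual epithelial cells, because their apical surface is the bile canaliculus between neighbouring cells, and LKB1, AMPK and Par1b (Mark2) are known to act in its formation.

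The DKO libraries held few reads from liver transcripts. Reads assigned to genes numbered 309731, 525037 and 1491237 in DKO replicates 1, 2 and 3, and 12320487 to 15869639 in the Control libraries. Albumin (Alb), the main secreted protein of hepatocytes, took 0.0933%, 3.08% and 0.322% of these reads in DKO replicates 1, 2 and 3 and 6.58% to 7.66% in Control. Mitochondrial transcripts took 6.27%, 14.4% and 62.7% in DKO replicates 1, 2 and 3 and 6.34% to 6.57% in Control, so most gene reads of DKO replicate 3 were mitochondrial, and their part in the results was not tested. Genes nearly silent in Control liver (8600 protein-coding genes with at most 10 Control reads in all) had 1.34, 0.968 and 2.40 reads per kb of exon in DKO replicates 1, 2 and 3 and 0.0878 to 0.157 in Control. These reads are called background below. Ctnnb1 had 0, 52 and 65 reads in DKO replicates 1, 2 and 3, against 2945, 2896 and 2650 in Control replicates 1, 2 and 3. Its log2 fold change was -2.26 (SE 1.30, adjusted p = 0.171 in edgeR's quasi-likelihood test), and that of Jup, with 6, 1 and 11 reads in DKO replicates 1, 2 and 3, against 339, 270 and 196 in Control, was -1.68 (SE 0.72, adjusted p = 0.0847). Neither targeted gene passed the threshold of an adjusted p of 0.05. In DKO replicate 2 the 52 Ctnnb1 reads compare with 53.3 that liver transcripts at the Control proportion would give, and in DKO replicate 3 the 65 reads compare with 15.6 from liver transcripts and 18.8 from background. Only 1.32 liver reads were expected in DKO replicate 1. The Ctnnb1 reads thus do not show the deletion in any of the 3 libraries, and DKO below names libraries by their label. In bulk tissue, fewer cells of a type and less RNA per cell cannot be told apart.

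Levels were compared between genes only in the Control libraries, as TPM, transcript shares in which counts are divided by exonic length. Stk11 was the most abundant of the 10 genes, at 46.1 ± 3.01 TPM (SD, n = 3, as for the other levels in this paragraph), above 89.4% of the 15864 protein-coding genes that had a Control read. Crb3, a small transmembrane Crumbs protein, followed at 14.4 ± 2.69 TPM, and both stood apart from the genes below them in every Control library. Dlg1 (9.36 ± 0.56 TPM), Pard3 (8.57 ± 0.82), Llgl2 (7.73 ± 3.16) and Scrib (7.11 ± 1.13) overlapped their neighbours in this order. A gap then separated Scrib from Mark2 (3.86 ± 1.64 TPM), Prkci (3.41 ± 0.61), Llgl1 (2.42 ± 0.66) and Pard6b (2.23 ± 0.41), which again overlapped their neighbours. Every polarity complex was thus represented in Control liver, with Mark2, Prkci, Llgl1 and Pard6b at the low end of the 10 genes.

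**Figure D1:**
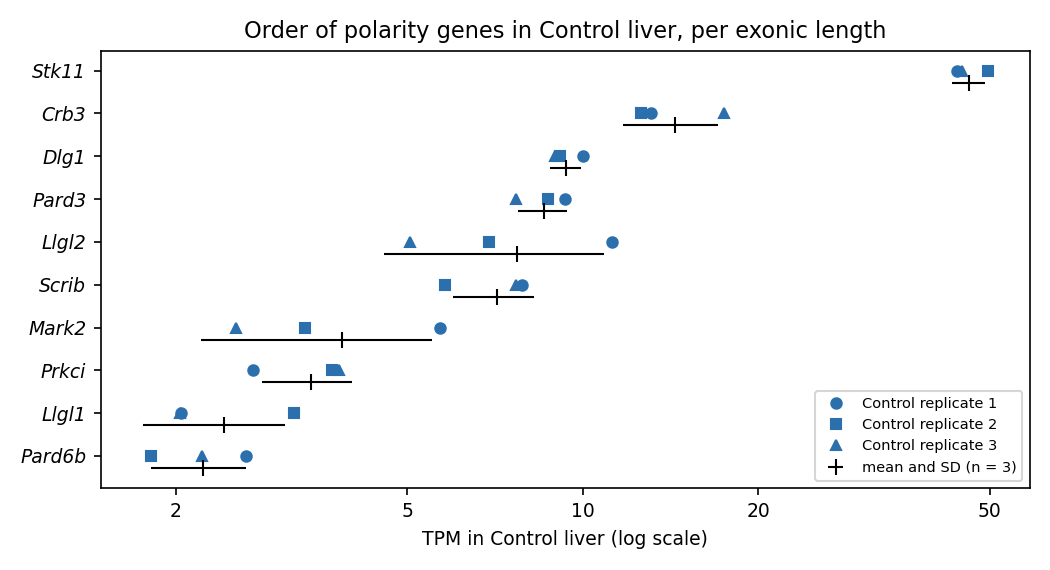
TPM (log scale) of the 10 polarity genes in the 3 Control libraries, ordered by mean, with the mean and SD drawn below the points. Stk11 and Crb3 stand above the others, and 4 genes lie below the gap under Scrib.

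Llgl2 and Mark2 varied most among the Control libraries. As RPM of gene reads (counts scaled to equal gene read totals), Llgl2 had 25.2, 15.9 and 11.9 and Mark2 20.98, 12.6 and 9.74 in Control replicates 1, 2 and 3, a highest value 2.13 and 2.15 times the lowest. For the other 8 genes this ratio was 1.07 to 1.60. The bile duct markers Krt19, Epcam, Sox9 and Spp1 were also highest in Control replicate 1, with 35, 3 and 1 reads for Krt19 and 40, 15 and 9 for Epcam in Control replicates 1, 2 and 3. Krt7 was highest in Control replicate 3, at 0.95, 0.36 and 1.06 RPM in Control replicates 1, 2 and 3. The summed level of all 6 bile duct markers was 82.9, 62.0 and 65.5 RPM in Control replicates 1, 2 and 3, with Cldn4 at 0 in all 3 libraries, and that of 6 endothelial markers was 276.6, 144.3 and 149.6 RPM. Stellate cell markers (259.7, 160.2 and 177.3 RPM) and Kupffer cell markers (219.5, 161.2 and 159.98 RPM) were also highest in Control replicate 1. The part of these cells in the spread of Llgl2 and Mark2 was not tested.

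Of the 10 polarity genes, Mark2 was higher and Dlg1 and Llgl1 were lower in the DKO libraries, and 7 did not pass the threshold in edgeR's quasi-likelihood test. All 10 passed the filter on low counts. Among all 15561 genes tested, 31.3% were called higher and 12.8% lower, so 1 of 10 higher was below, and 2 of 10 lower was close to, the share in the whole comparison. The groups did not overlap for 5 genes that were lower and 1 that was higher in every DKO library, where 36.4% and 34.0% of all tested genes did not overlap in these directions. The median log2 fold change of the 10 genes was -1.06, also with Llgl1 set at its bound, beside -0.08 over all genes tested. Below, CPM are library-size normalised counts scaled by TMM, and fold changes are DKO over Control on that scale, where TMM sets the scale from genes of middling change.

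**Figure D2:**
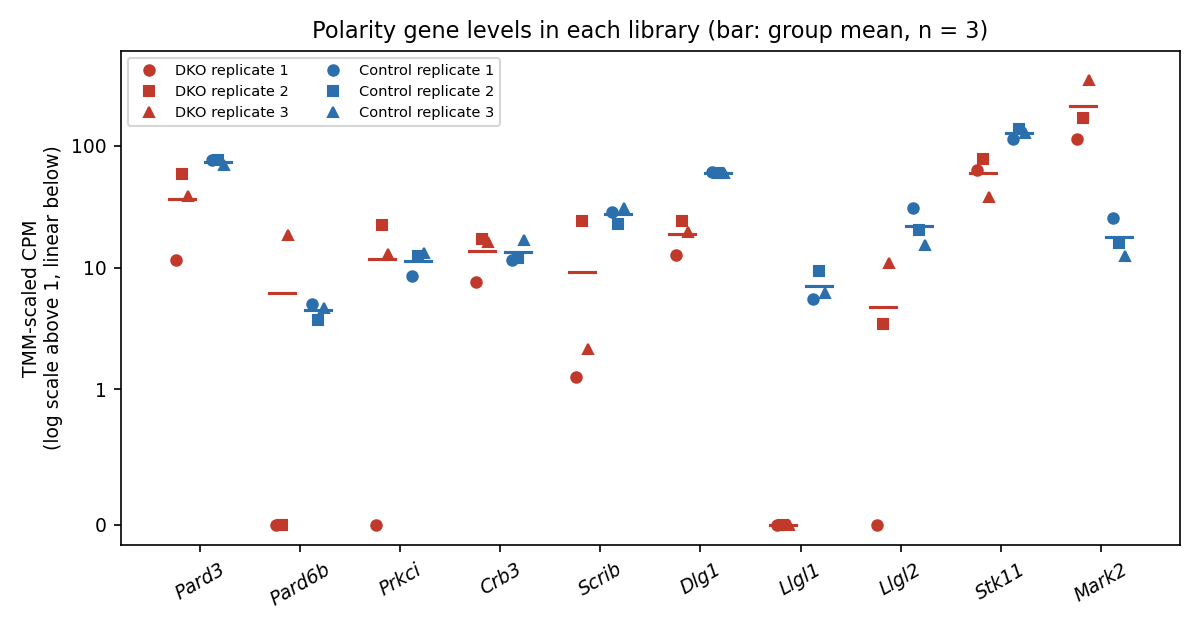
TMM-scaled CPM (log scale above 1, linear below) of the 10 polarity genes in each library, DKO in red and Control in blue, with symbols for replicates and bars for group means. Mark2 is the one gene with every DKO library above every Control library, and Llgl1 lies at 0 in all 3 DKO libraries.

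The promoters of the 3 called genes are shown because the polarity genes share a sequence feature there that their choice did not use. RefSeq promoters (GRCm38.p6, the assembly of mm10) run from 250 bases before to 50 after a gene's start, and 8 of the 10 genes were matched; Llgl2 and Scrib were not. Where a gene has several, the one at the most upstream start was taken. In the sequences below, 5′ to 3′ on the strand of the gene, capitals mark the GC box GGGCGG or its reverse complement CCGCCC.
Llgl1 (chr11:60699450-60699749, plus strand): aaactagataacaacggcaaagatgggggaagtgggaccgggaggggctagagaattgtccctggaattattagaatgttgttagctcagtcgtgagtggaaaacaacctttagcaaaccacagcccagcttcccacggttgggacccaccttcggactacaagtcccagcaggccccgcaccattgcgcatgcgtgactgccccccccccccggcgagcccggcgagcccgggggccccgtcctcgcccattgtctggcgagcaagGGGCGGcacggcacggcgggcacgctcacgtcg
Dlg1 (chr16:31663193-31663492, plus strand): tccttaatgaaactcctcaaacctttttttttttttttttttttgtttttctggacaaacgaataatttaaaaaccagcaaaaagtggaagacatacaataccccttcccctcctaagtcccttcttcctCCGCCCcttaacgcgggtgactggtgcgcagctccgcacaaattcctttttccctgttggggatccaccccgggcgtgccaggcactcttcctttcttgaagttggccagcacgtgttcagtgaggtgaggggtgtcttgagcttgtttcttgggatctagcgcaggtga
Mark2 (chr19:7341811-7342110, minus strand): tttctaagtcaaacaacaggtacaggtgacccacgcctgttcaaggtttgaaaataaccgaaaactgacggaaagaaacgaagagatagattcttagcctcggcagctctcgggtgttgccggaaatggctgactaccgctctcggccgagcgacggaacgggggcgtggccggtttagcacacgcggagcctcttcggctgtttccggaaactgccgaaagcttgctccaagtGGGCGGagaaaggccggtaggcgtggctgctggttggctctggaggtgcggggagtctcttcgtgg
All 8 matched promoters held at least 1 GC box, which 35.7% of 32851 promoters of the same length do. The share of GC boxes among promoters of like CG content was not computed, so the feature is not shown to be particular to polarity genes. The 8 promoters held 10 to 47 CG dinucleotides, where the median over all promoters was 7.0 and 43.5% had at least 10. Dlg1 had the fewest and Pard6b the most, and the called genes Llgl1 and Mark2 had 23 and 25, so this feature did not separate higher from lower genes. Searched on both strands, the TCF/LEF core CTTTGA was in 0 of 8 and in 16.003% of all promoters, and the HNF4 element CAAAGTCCA in 0 of 8 and in 0.475%. The reverse complement of the TCF/LEF core, TCAAAG, shares the letters CAAAG with the HNF4 element. The SMAD element CAGAC was in 4 of 8 (Crb3, Llgl1, Prkci and Stk11) and in 49.6% of all promoters, and the CCAAT box CCAAT in 2 of 8 (Pard6b and Stk11) and in 37.4%. A match is a match of letters, and its absence concerns these windows alone.

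Mark2 encodes the MARK2 (Par1b) kinase of the basolateral domain (chromosome 19, 7275396 to 7341860, mm10, minus strand). It had 89, 98 and 321 reads in DKO replicates 1, 2 and 3, against 333, 176 and 120 in Control replicates 1, 2 and 3. Scaled, this was 113.3, 168.5 and 347.3 CPM in the DKO libraries and 25.4, 16.04 and 12.5 CPM in the Control libraries, so that the groups did not overlap. The log2 fold change was 3.54 (SE 0.81, 95% interval 1.72 to 5.37, adjusted p = 0.0061). Without Control replicate 2 or 3 the adjusted p was 0.0568 and 0.0604, and without Control replicate 1, 0.0339. The direction was the same on each of the other scales tried. No other annotated gene shares exonic bases with Mark2, and its promoter held 1 GC box and 25 CG dinucleotides.

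Llgl1 encodes a Lgl protein, a basolateral scaffold and substrate of atypical protein kinase C (chromosome 11, 60699723 to 60714186, plus strand). It had no read in any DKO library, against 73, 103 and 59 reads in Control replicates 1, 2 and 3. It was at least 5.33-fold lower against a floor of 3 counts over the DKO libraries, which covers counting error only (adjusted p = 0.0106). Its fitted log2 fold change of -8.40 depends on a prior count and is no measure of size. Its levels were 5.57, 9.39 and 6.13 CPM in Control replicates 1, 2 and 3. Libraries were also scaled on 163 abundant liver genes, so that a fold change is relative to the liver transcripts of the same library. On this scale of abundant liver genes the DKO libraries would hold 1.94 Llgl1 reads at the Control proportion, and the call was lost (adjusted p = 0.0951). The promoter of Llgl1 held, like that of Mark2, 1 GC box and a similar number of CG dinucleotides, 23. Of its 4862 exonic bases, 64 are shared with Flii on the opposite strand, and reads there cannot be assigned without the strand.

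Llgl2, the second Lgl gene (chromosome 11, 115824049 to 115855780, plus strand), had 0, 2 and 10 reads in DKO replicates 1, 2 and 3, against 400, 222 and 146 in Control replicates 1, 2 and 3. Every DKO library was below every Control library, but the log2 fold change of -2.15 (SE 0.96, 95% interval -4.32 to 0.02) did not pass (adjusted p = 0.0954). It passed in DESeq2 (adjusted p = 0.0299) and without DKO replicate 3 (0.0307).

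Dlg1 encodes a membrane-associated guanylate kinase scaffold of the Scribble module (chromosome 16, 31663443 to 31875129, plus strand). It had 10, 14 and 18 reads in DKO replicates 1, 2 and 3, against 790, 651 and 573 in Control replicates 1, 2 and 3. It averaged 18.8 ± 5.71 CPM in the DKO libraries and 59.7 ± 0.51 CPM in the Control libraries (SD, n = 3 each), the smallest spread among Control libraries of the 10 genes relative to its mean. The log2 fold change was -1.68 (SE 0.55, 95% interval -2.90 to -0.45, adjusted p = 0.0317), and it turned to 3.53 on the scale of abundant liver genes. That scale moved all genes by a median of 4.45, and relative to this shift Dlg1 lay at -0.93. The call was lost when any 1 Control library was left out (adjusted p = 0.117, 0.113 and 0.112 without replicate 1, 2 and 3), with library totals, where the log2 fold change was -1.003 (adjusted p = 0.236), and with the replicate number as a block (0.109).

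Scrib, the large scaffold that names the module (chromosome 15, 76047158 to 76069784, minus strand), had 1, 14 and 2 reads in DKO replicates 1, 2 and 3, against 373, 249 and 295 in Control replicates 1, 2 and 3. In CPM it was low in DKO replicates 1 and 3, at 1.27 and 2.16, while the 24.1 of replicate 2 lay within the 22.7 to 30.7 of Control. The log2 fold change of -1.67 (SE 0.96, 95% interval -3.83 to 0.49) did not pass (adjusted p = 0.172). Without DKO replicate 2 it was -4.11 and passed (adjusted p = 0.00357).

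The Par complex genes did not pass the threshold. Pard3, the scaffold that assembles the complex at junctions (chromosome 8, 127063893 to 127612286, plus strand), had 9, 34 and 36 reads in DKO replicates 1, 2 and 3, against 995, 839 and 665 in Control replicates 1, 2 and 3. It averaged 36.3 ± 23.6 CPM in the DKO libraries and 73.8 ± 4.11 CPM in Control, without overlap, at a log2 fold change of -1.03 (SE 0.66, 95% interval -2.52 to 0.45, adjusted p = 0.213). Pard6b, an adaptor between Cdc42 and the kinase (chromosome 2, 168081004 to 168101203, plus strand), had 0, 0 and 17 reads in DKO replicates 1, 2 and 3, against 66, 41 and 45 in Control. Only DKO replicate 3 held reads of it, so its log2 fold change of 0.55 (SE 1.18, 95% interval -2.10 to 3.20) rested on that library and was -7.97 without it (adjusted p = 0.0472), a fitted value that depends on the prior count because the DKO group is then at 0. Prkci, the gene of protein kinase C iota (chromosome 3, 30995747 to 31052959, plus strand), had 0, 13 and 12 reads in DKO replicates 1, 2 and 3, against 111, 137 and 126 in Control. Its groups overlapped, and its log2 fold change of 0.02 (95% interval -2.21 to 2.26) leaves changes of over 4-fold either way within the interval.

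Crb3 of the Crumbs complex (chromosome 17, 57059105 to 57065918, plus strand) had 6, 10 and 15 reads in DKO replicates 1, 2 and 3, against 151, 131 and 163 in Control replicates 1, 2 and 3. It averaged 13.7 ± 5.26 CPM in the DKO libraries and 13.5 ± 3.01 CPM in Control, and the log2 fold change was 0.02 (SE 0.64, 95% interval -1.42 to 1.46, adjusted p = 0.982). The groups overlapped, and its sign changed with the scale. Crb3 shares 14 exonic bases with Dennd1c on the opposite strand.

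Stk11, the LKB1 gene (chromosome 10, 80115803 to 80130682, plus strand), had 50, 45 and 35 reads in DKO replicates 1, 2 and 3, against 1482, 1508 and 1224 in Control replicates 1, 2 and 3. Scaled, it had 63.7, 77.4 and 37.9 CPM in the DKO libraries and 113.1, 137.4 and 127.2 CPM in Control, without overlap. The log2 fold change of -1.08 (SE 0.64, 95% interval -2.52 to 0.35) did not pass (adjusted p = 0.182), and passed without DKO replicate 1 (adjusted p = 0.0425). On the scale of abundant liver genes Stk11 was instead called higher (log2 fold change 4.76, adjusted p = 0.0445). Relative to the median shift of 4.45 on that scale it lay at 0.31. Stk11 shares 232 of its 4580 exonic bases with Cbarp on the opposite strand.

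The order of the fold changes depended on the scale, and the sign of 5 genes turned on the scale of abundant liver genes. These were Pard3 (3.39), Llgl2 (1.65), Scrib (1.23), Dlg1 (3.53) and Stk11 (4.76). Relative to the median shift of 4.45 on that scale, Mark2 lay at 4.25, Crb3 at 0.47, Stk11 at 0.31, Dlg1 at -0.93, Pard3 at -1.06, Llgl2 at -2.80 and Scrib at -3.22. After background reads were subtracted, Mark2 stayed higher (log2 fold change 3.89, adjusted p = 0.0182) and Llgl1 lower (adjusted p = 0.0169). Llgl2 was then called lower (adjusted p = 0.0113), while the call of Dlg1 was lost (adjusted p = 0.109). The subtraction was made in the DKO libraries only and stopped at 0. Llgl1 had no DKO read to lose, so its call could not be tested this way. The 0, 2 and 10 Llgl2 reads of DKO replicates 1, 2 and 3 were below the 7.98, 7.03 and 15.4 expected. All were set to 0, and the call of Llgl2 rests on that step.

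The number of polarity genes called under each setting is read against the share of all tested genes called there. On the abundant liver gene scale 5 of the 10 were higher and 0 lower, where 62.5% and 0.546% of all genes were called. The 5 were Mark2, Pard6b, Prkci, Crb3 and Stk11. Under 8 settings Mark2 was the 1 gene higher, and the share of all genes called higher was 32.4% with DESeq2's size factors, 34.8% with library totals, 17.3% after background subtraction, 29.3% in DESeq2, 38.0% with no filter, 26.6% with the replicate number as a block, 25.3% with DKO replicate 2 alone and 26.1% at an adjusted p of 0.01. Lower in the same order were 3, 1, 2, 4, 4, 1, 4 and 0 polarity genes, and 23.0%, 9.24%, 20.8%, 13.7%, 15.4%, 14.0%, 28.6% and 3.28% of all genes. DKO replicate 2 alone leaves the DKO group with no replicate, so that fit takes its spread from Control and assumes that DKO libraries vary alike. The 4 lower genes were Pard3, Llgl1, Llgl2 and Dlg1 in DESeq2 and Llgl1, Llgl2, Scrib and Dlg1 with no filter. Without DKO replicate 1, 2 or 3, Mark2 was the 1 gene higher (33.5%, 31.1% and 27.3% of all genes) and 3, 4 and 4 polarity genes were lower (22.0%, 26.7% and 12.0%). Without Control replicate 1, 2 or 3, there were 1, 0 and 0 polarity genes higher (30.8%, 29.5% and 29.4%) and 0 lower (4.05%, 4.28% and 4.13%).

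**Figure D3:**
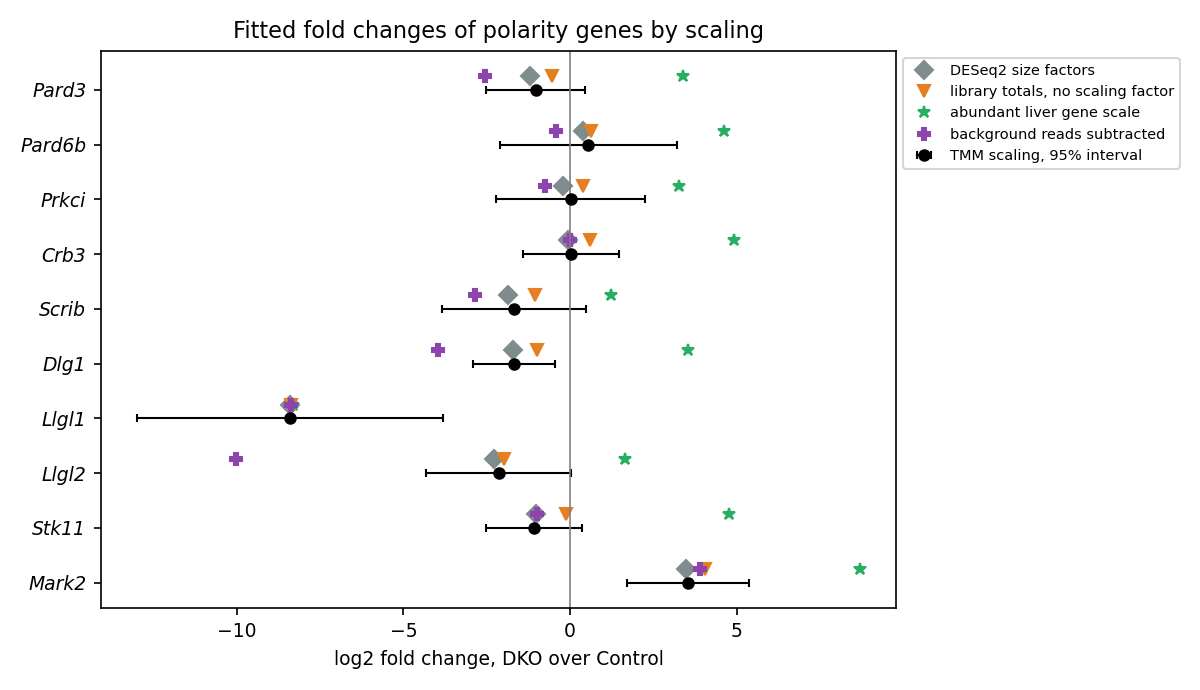
Fitted log2 fold changes, DKO over Control, of the 10 polarity genes with TMM scaling (black, with 95% intervals) and under 4 other treatments of the counts. Mark2 lies above 0 and Llgl1 below 0 in all 5, and on the abundant liver gene scale 9 of the 10 genes lie above 0.

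Reads of the 10 genes in the DKO libraries were then set beside 2 expectations. The first was the background of genes of like GC content, times exonic length, and the second the reads that liver transcripts at the Control proportion would give. The 10 genes had 861 reads over the 3 DKO libraries, of which Mark2 held 59.0%, against 5.14% of their 12247 reads in Control. Without Mark2 the other genes had 353 reads, beside 324.1 expected from background and 96.1 from liver transcripts. For 9 of the 10 genes the expected background exceeded the expected liver reads, and Stk11 was the exception (28.7 from background and 34.8 from liver). Gene by gene, counted reads were 0.777 to 1.07 times the expected background for Pard3, Pard6b, Prkci and Dlg1, 0 to 0.42 times for Llgl1, Llgl2 and Scrib, and 3.16 to 10.5 times for Crb3, Stk11 and Mark2.

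Mark2 had more reads than either expectation in every DKO library. Its 89, 98 and 321 reads in DKO replicates 1, 2 and 3 compare with 12.1, 10.2 and 26.0 from background and 0.10, 3.95 and 1.15 from liver transcripts. Summed, this was 10.5 times the background. Among 2019 nearly silent genes with at least 20 expected background reads, the median ratio of counted to expected reads was 0.465, the 95th percentile was 3.65, and 5 genes (0.248%) reached the ratio of Mark2. Among 7418 other protein-coding genes with the same minimum, 110 (1.48%) reached it. Genes under this minimum were left out of both shares. Among them were Lin7a and Lin7c of the Crumbs complex list, at 13.1 and 11.7 times their background (184 and 94 reads, 14.0 and 8.01 expected). Stk11, with 130 reads, had 4.52 times its background, and was above the 63.6 reads expected from background and liver together, chiefly through 50 reads in DKO replicate 1, where 7.54 and 0.65 were expected.

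Llgl1 lay at the other end. Its 0 reads compare with 8.01, 7.06 and 15.5 expected from background in DKO replicates 1, 2 and 3. Of the 7418 other protein-coding genes, the class to which Llgl1 belongs, 156 (2.10%) had no read in the DKO libraries, and so did 222 of the 2019 nearly silent genes. Llgl2 (12 reads, 30.4 expected from background) and Scrib (17 reads, 40.5 expected) were also below it. Pard3 (79 reads, 93.4 expected), Dlg1 (42, 45.4) and Pard6b (17, 21.9) were closer to it, and Prkci (25, 23.5) and Crb3 (31, 9.82) were above it. Because the expectation is a mean rate and the median gene had less than it, a count below it is common.

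**Figure D4:**
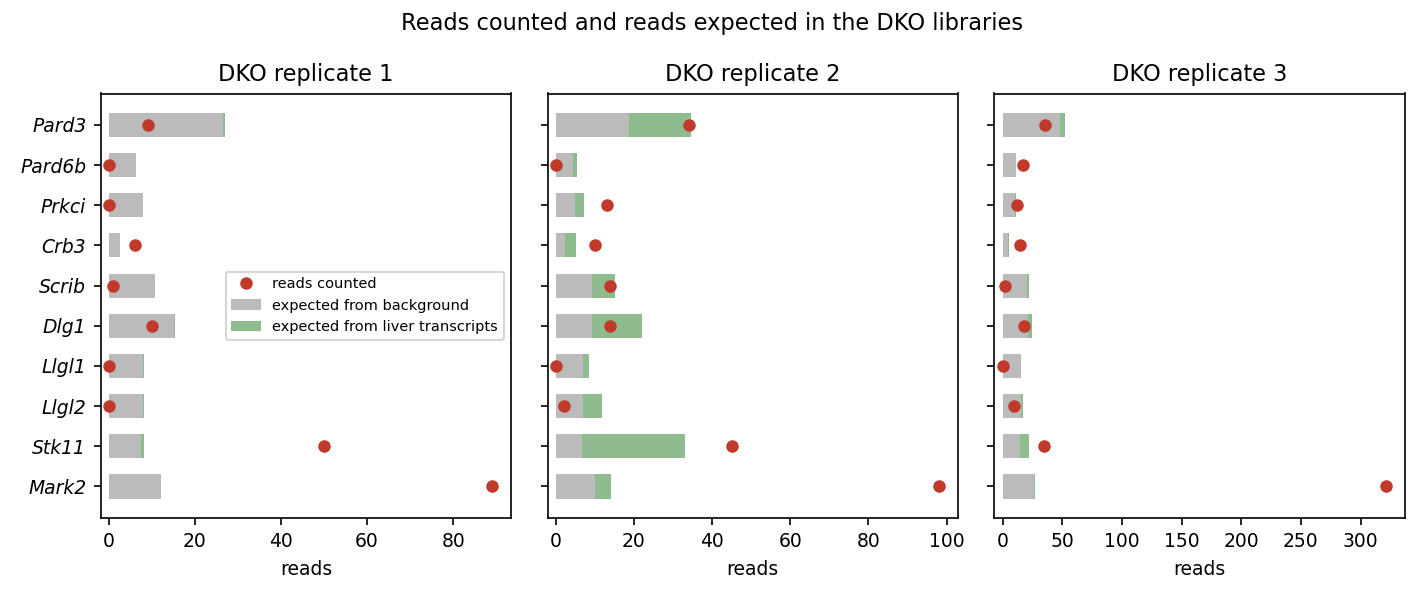
Reads counted in each DKO library (red points) and reads expected from background (grey) and from liver transcripts at the Control proportion (green), with a separate linear axis for each library. Mark2 lies far right of its bar in all 3 libraries, at 89, 98 and 321 reads, and Llgl1 lies at 0.

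The composition of each paralog family was compared as the share of the family's reads that fell on the polarity gene, in which the scaling of the libraries cancels. Of the reads of the 4 MARK genes, Mark2 held 51.7%, 64.9% and 85.1% in DKO replicates 1, 2 and 3 (95% Wilson intervals 44.3 to 59.1, 57.0 to 72.1 and 81.2 to 88.4), against 32.8% and 24.2% in Control replicates 1 and 2 and 120 of 600 reads in Control replicate 3. Background alone would give 31.2% to 36.1% in the DKO libraries, so the share of Mark2 was above both that and every Control library. Intervals cover counting error only.

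In 4 other families the share of the polarity gene was lower in every DKO library than in every Control library. Dlg1 held 18.8% ± 6.71 of the reads of Dlg1 to Dlg5 in the DKO libraries and 73.7% ± 2.22 in Control (SD, n = 3 each), where background would give 15.4% to 18.1%. Crb3 held 40.1% ± 5.41 of the Crb1 to Crb3 reads in the DKO libraries and 99.1% ± 0.91 in Control, with 7.06% to 8.04% from background. Pard3 held 51.4% ± 22.9 of the reads of Pard3 and Pard3b in the DKO libraries and 95.6% ± 0.11 in Control, with 49.6% to 50.5% from background. Pard6b held 0 of 28, 0 of 1 and 17 of 64 reads of the Pard6 genes in DKO replicates 1, 2 and 3, and 66 of 110, 41 of 81 and 45 of 79 in Control replicates 1, 2 and 3. The share of Prkci in the reads of both atypical kinases overlapped between the groups, at 34.0% ± 30.1 in the DKO libraries and 37.7% ± 6.12 in Control. For each of the 5 families without overlap a two-sided exact permutation test gave p = 0.1 (adjusted p = 0.12 over 6 families), where 0.1 is the smallest that 3 against 3 libraries allow. Llgl2 held all 2 and all 10 Llgl reads of DKO replicates 2 and 3, and 68.3% to 84.6% in Control, while DKO replicate 1 had no Llgl read.

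The other genes of the pathway were taken from 4 lists with 43 genes. Of the 40 tested, 10 were higher and 4 lower, beside 31.3% and 12.8% of all genes tested, and the median log2 fold change was -0.13. The 10 that rose are nearly silent or low in Control liver, at 1.31 TPM or less, and the 4 that fell lay at 3.83 TPM or more. The plot of fold change against Control level shows this division. Genes with next to no Control reads, such as Lrrc7, Dlg2 and Crb2, passed the filter on low counts only through the DKO libraries and could only be called higher, so this division is in part fixed by the filter and by the Control level, which enters both values. After background reads were subtracted, 7 of the 10 (Pard6g, Tiam1, Crb2, Dlg2, Dlg4, Lrrc1 and Lrrc7) did not pass the filter and were not tested. Of the other 3, Patj and Strada were not called (adjusted p = 0.448 and 0.447), and Pard3b was called lower (log2 fold change -7.33, adjusted p = 0.0132). The 21, 11 and 38 Pard3b reads of DKO replicates 1, 2 and 3 were below the 26.0, 19.1 and 47.6 expected from background. The subtraction set them all to 0, so the -7.33 depends on a prior count and is no measure of size. Without any 1 Control library the calls of Patj, Strada, Rac1, Ywhae and Prkaa2 were lost (adjusted p = 0.0629 to 0.128), that of Mpp5 was lost without Control replicate 2 or 3 (0.0505 and 0.0553), and Lrrc1 was not tested. Without DKO replicate 3 the calls of Rac1 (0.0551) and Ywhae (0.0691) were lost, and without DKO replicate 1 that of Lrrc1 (0.0747).

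Among the 14 partners of the Par complex, 3 rose and 2 fell, beside 31.3% and 12.8% of all genes tested. The partner scaffold Pard3b rose (21, 11 and 38 reads in DKO replicates 1, 2 and 3, against 47, 38 and 30 in Control; log2 fold change 3.09, SE 0.64, adjusted p = 0.00347), as did the Par6 gene Pard6g (5.22, SE 1.06, adjusted p = 0.00327) and the Rac activator Tiam1 (3.74, SE 0.72, adjusted p = 0.00226). The 70 reads of Pard3b and 49 of Tiam1 were below the 92.8 and 64.7 expected from background, and the 68 of Pard6g above its 22.2. The GTPase Rac1 fell (log2 fold change -2.49, SE 0.77, adjusted p = 0.0265), as did the 14-3-3 gene Ywhae (-3.14, SE 1.06, adjusted p = 0.0378), and their values of 1.67 and 0.27 on the scale of abundant liver genes lie at -2.78 and -4.18 relative to the median shift of 4.45. Cdc42, the GTPase that activates the Par complex, had 0, 64 and 30 reads in the DKO libraries, against 2229, 1819 and 1572 in Control (log2 fold change -1.82, adjusted p = 0.240), and the 14-3-3 gene Ywhab lay at -1.75 on the log2 scale (adjusted p = 0.0925).

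Of 5 tested Crumbs complex genes, 2 rose and 1 fell, beside 31.3% and 12.8% of all genes tested. Crb2 had 6, 18 and 24 reads in DKO replicates 1, 2 and 3 and 2 in all of Control, a ratio of 353 with a counting interval of 92.5 to 2998 (adjusted p = 0.000941), and 42.0 reads were expected from background. The scaffold Patj rose by 2.34 on the log2 scale (SE 0.68, adjusted p = 0.0205), with 118 reads beside 92.3 from background. Mpp5, the Pals1 scaffold that binds Crumbs, fell, with 0, 2 and 1 reads in the DKO libraries against 206, 231 and 227 in Control, a ratio of 0.0664 with a counting interval of 0.0137 to 0.195 (adjusted p = 0.0104). It stayed below 0 on the scale of abundant liver genes (-0.84, or -5.29 relative to the median shift) but was not called there (adjusted p = 0.478). Lin7a (0.55, adjusted p = 0.413) and Lin7c (-0.41, adjusted p = 0.689), the most abundant of this list in Control, were not called. Crb1 and Lin7b, with at most 2 reads in either group, were not tested.

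Of 9 genes of the Scribble module list, 4 rose and the other 5 were not called, where 31.3% of all genes tested were called higher and 12.8% lower. The Dlg paralogs Dlg2 and Dlg4 and the LAP family genes Lrrc1 and Lrrc7 rose. Lrrc7 had 14, 15 and 14 reads in DKO replicates 1, 2 and 3 and 0 in all of Control. With Control set at 3 counts in all, it was at least 210.8-fold higher (adjusted p = 0.000749). Dlg2 had 20, 14 and 23 reads in the DKO libraries and 1 in all of Control, a ratio of 838 with a counting interval of 145 to 33685 (adjusted p = 0.000671). Dlg4 had 51, 33 and 23 reads in the DKO libraries, against 6, 13 and 3 in Control (log2 fold change 6.18, SE 0.84, adjusted p = 0.000747), and Lrrc1 had 15, 1 and 8 in the DKO libraries, against 19, 5 and 1 in Control (log2 fold change 3.83, SE 1.07, adjusted p = 0.0174). Background would give 58.7 reads for Lrrc7, 68.8 for Dlg2, 70.3 for Dlg4 and 57.8 for Lrrc1, beside the 43, 57, 107 and 24 counted. Erbin (-1.43, adjusted p = 0.0607), Dlg3 (-1.57, adjusted p = 0.132) and Git1 (0.15, adjusted p = 0.916), the most abundant of the list in Control, were not called.

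Of 12 tested LKB1 partners, MARK and AMPK genes, 1 rose and 1 fell, beside 31.3% and 12.8% of all genes tested. Strada, a pseudokinase that activates LKB1, rose by 2.29 on the log2 scale (SE 0.70, adjusted p = 0.0239), with 25 reads beside 18.2 from background. Prkaa2, a catalytic subunit gene of AMPK, had 2, 15 and 8 reads in DKO replicates 1, 2 and 3, against 893, 793 and 676 in Control (log2 fold change -2.56, SE 0.77, adjusted p = 0.0235), and its value of 1.10 on the scale of abundant liver genes lies at -3.35 relative to the median shift. Prkag1 (-0.59, adjusted p = 0.533), Cab39l (-2.05, adjusted p = 0.112) and Cab39 (-1.06, adjusted p = 0.156) were not called. Mark1 was not tested, and neither Mark3 (0.83, adjusted p = 0.244) nor Mark4 (0.20, adjusted p = 0.871) was called beside Mark2, a difference that was not tested between the genes.

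**Figure D5:**
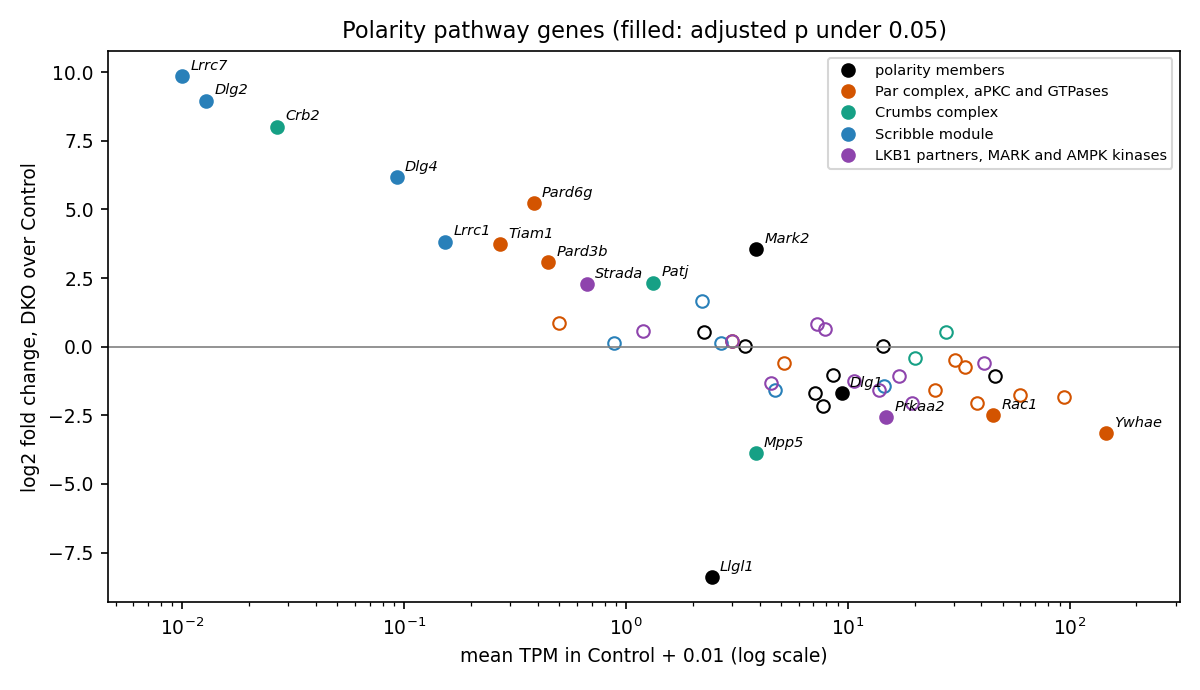
Log2 fold change, DKO over Control, against mean Control TPM (log scale, 0.01 added) for the tested genes of the 10 polarity genes and the 4 pathway lists, filled where the adjusted p was under 0.05. Filled points above 0 lie at 1.31 TPM or less, except Mark2 at 3.86 TPM. The heights of Llgl1, Lrrc7, Dlg2 and Crb2, with 0 to 2 reads in a group, depend on the prior count.

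Marker genes of other liver cells were set beside these results. The 6 hepatocyte markers summed to 653 to 37871 CPM in the DKO libraries and 113993 to 125801 CPM in Control, with none at 0. Of the 5 bile duct markers tested, Sox9 (4.51), Epcam (3.86) and Krt7 (2.69) were called higher and Spp1 (-1.85) lower, as log2 fold changes. Krt19 (1.80) was not called. The 16 DKO reads of Krt7 were below the 45.4 expected from background. Sox9 had 271 reads beside 29.2 expected, Epcam 67 beside 14.1 and Spp1 46 beside 6.97. The 6 bile duct markers summed to 129 to 227 CPM in the DKO libraries and 78.8 to 100.4 in Control, with 1 or 2 of them, always including Cldn4, at 0 in each library. The 6 Kupffer cell markers summed to 11.5 to 116.8 CPM in the DKO libraries and 204.8 to 265.8 CPM in Control, and 3 of 6, among them Clec4f, were at 0 in DKO replicate 1. The 6 endothelial markers overlapped between the groups, at 220.1 to 331.0 CPM in the DKO libraries and 183.5 to 335.1 CPM in Control, and so did the 6 stellate cell markers, at 168.5 to 365.7 CPM in the DKO libraries and 203.8 to 314.5 CPM in Control. The 6 genes of the blood cell list summed to 213.9 to 478.1 CPM in the DKO libraries and 170.7 to 179.4 in Control. Ncam1 alone gave 122.2 of the 213.9 CPM in DKO replicate 1. Single genes of these lists were also called higher, with log2 fold changes of 3.05 for Pecam1 (endothelial), 2.83 for Col1a1 (stellate), and 7.89 for Cd3e and 7.88 for Ncam1 (blood cell list). Other tested genes of the same lists were lower in every DKO library, though not called. They were Clec4g (-2.28) and Kdr (-1.41), Dcn (-1.38) and Colec11 (-1.92), and Hbb-bs (-0.66). The part of these markers in the calls above was not tested.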

How the data were processed

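RNA was measured in 6 mouse liver libraries, 3 DKO and 3 Control, grouped by sample title. The authors deposited raw counts of reads for each Ensembl gene ID, and the submitters' processing notes name STAR, HTSeq and mm10. The sources used here give no versions, strand setting or annotation release. The 5 rows that name no gene held 95.3% to 97.3% of reads in DKO and 65.1% to 66.7% in Control, and were left out of totals and tests. Symbols came from a gene name reference (42462 IDs matched, 884 not), and positions, exonic lengths and GC content from GENCODE M21.

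The main test was edgeR 4.0.16's quasi-likelihood test (R 4.3.3, robust, TMM, filterByExpr, no covariates), Benjamini-Hochberg adjusted over 15561 genes, two-sided, threshold 0.05. The median ratio of 163 abundant liver genes (over 30000 Control counts) to their Control mean gave each library's liver scale. Background was estimated in 10 GC bins. Alternatives used other scalings, DESeq2 1.42.0, no filter, a threshold of 0.01, a replicate block and left-out libraries. The fits and the background and scale estimates were tested on simulated data. Simulated DKO counts for the fits had the spread of Control and no background reads. The simulated background had the same rate in every gene. The DKO libraries differ in both, so these tests do not show how the methods perform on them. No libraries were identical or alike within sampling noise. The labels do not say that libraries came from separate animals, so p-values measure the spread between libraries, which may be technical.

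The members, the lists and the tests were chosen with earlier results of these data known. Genes named are the 10 members, Ctnnb1, Jup, Alb, called pathway genes and the 3 most abundant genes per pathway list. The other MARK genes, the markers named and Crb1 and Lin7b were added after their values were seen, as was the comparison of family shares.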

Additional observations from a re-analysis of the deposited data

Results flagged for a closer look

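Uniquely aligned reads outside annotated genes, which enter no comparison above, made up 66.7% ± 6.44 of all reads in the DKO libraries (61.0% to 73.7%) and 38.9% ± 1.51 in the Control libraries (37.8% to 40.6%, SD, n = 3 each). They are listed because they lay above the level of every Control library.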

How the results depend on the processing

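Mark2 kept its direction and Llgl1 its direction in every setting that gave them a value. Llgl1, Pard6b and Lrrc1 had none without any 1 Control library, where fewer genes passed the filter. A DKO library held 309731 to 1491237 gene reads. Neither depth nor any other cause of a change between settings was tested. Main values are 4871 genes higher and 1992 lower, 1 and 2 polarity genes, and 10 and 4 pathway genes. Polarity genes lower numbered 3 with DESeq2's size factors, 4 in DESeq2, 4 with no filter on low counts, 4 with DKO replicate 2 alone (an alternative chosen after seeing the data), 2 after background subtraction, 1 with library totals, 1 with the replicate block, and 0 at an adjusted p of 0.01 and on the abundant-gene scale, where 5 were higher. Pathway genes lower numbered 7 with DESeq2's size factors, 7 in DESeq2, 12 with no filter, 13 with DKO replicate 2 alone, 2 with library totals, and 0 at 0.01 and on the abundant-gene scale, where 28 were higher; 0 were higher after background subtraction. All genes lower numbered 3577 with DESeq2's size factors, 4138 in DESeq2, 4650 with no filter, 4374 with DKO replicate 2 alone, 511 at 0.01 and 85 on the abundant-gene scale. All genes higher numbered 8835 of 30204 (29.3%) in DESeq2 and 11477 of 30209 (38.0%) with no filter. They were 2301 of 13332 (17.3%) after background subtraction and 9718 of 15561 (62.5%) on the abundant-gene scale, beside 31.3% in the main fit. The number of genes tested differs between settings, so these counts compare only as shares. The shares lower were 23.0% with DESeq2's size factors, 13.7% in DESeq2, 15.4% with no filter, 3.28% at 0.01 and 0.546% on the abundant-gene scale, beside 12.8% in the main fit. Leaving out 1 library gave 4130 to 5624 genes higher and 567 to 4492 lower, 0 to 1 and 0 to 4 polarity genes, and 7 to 11 and 0 to 11 pathway genes.

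The log2 fold change changed sign in the following cases. On the abundant-gene scale it was 3.39 for Pard3, 1.65 for Llgl2, 1.23 for Scrib, 3.53 for Dlg1, 4.76 for Stk11, 0.89 for Ctnnb1, 3.90 for Jup, 1.67 for Rac1, 0.27 for Ywhae, 1.10 for Prkaa2, 0.84 for Cdc42, 2.85 for Ywhab, 3.37 for Lin7c, 4.71 for Erbin, 4.37 for Dlg3, 3.65 for Prkag1, 1.41 for Cab39l and 5.19 for Cab39. After background subtraction it was -0.41 for Pard6b, -0.74 for Prkci, -0.0071 for Crb3, -7.33 for Pard3b, 0.024 for Lin7c and -0.83 for Git1. The value of Pard3b depends on the prior count, because the subtraction left it no DKO read. With DKO replicate 2 alone it was -8.27 for Pard6b, 0.026 for Lin7c and 0.61 for Prkag1, and with library totals 0.047 for Prkag1 and 0.075 for Cab39. For Prkci, Crb3 and Git1 it was -0.21, -0.060 and -0.078 with DESeq2's size factors, -0.24, -0.072 and -0.10 in DESeq2, and -0.48, -0.35 and -0.40 with no filter. Leaving out 1 library gave -7.97 to 1.00 for Pard6b, -0.92 to 0.47 for Prkci, -0.32 to 0.22 for Crb3 and -1.89 to 0.60 for Git1.

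Same-numbered libraries were not treated as pairs in the main test. Their deviations from the group means correlated at 0.13, 0.09 and -0.03 for numbers 1, 2 and 3. The 0.13 was the highest of all pairs, while DKO replicate 2 correlated better with Control replicate 3 (0.11). These values do not decide whether the libraries are paired. With the replicate block 4143 genes were higher and 2179 lower, 1 polarity gene was higher and 1 lower, and 8 and 6 pathway genes. The block turned Pard6b to -1.13, Prkci to -0.57, Crb3 to -0.034 and Git1 to -0.53.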
